A study of Culex quinquefasciatus and Culex pipiens molestus with 2 samples.

Results

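The transcripts of RNA polymerases, general transcription factors and their partners were compared between females of 2 house mosquitoes. The genes were taken by product description: names with RNA polymerase, transcription initiation factor, transcription elongation, Mediator, TATA box or TATA binding, or general transcription factor, without those naming a DNA polymerase, a helicase or a mitochondrial protein. This gave 81 transcript models of the 16198 listed with reads in at least 1 library. The samples were females of a laboratory strain of Culex pipiens molestus and of a laboratory strain of Culex pipiens quinquefasciatus, the southern house mosquito. RNA of 30 females was pooled into 1 polyadenylated library per taxon, so that a taxon, its strain and its library cannot be told apart. The labels give no age, feeding state or body part and name no treatment for either group.

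RNA polymerase II makes messenger RNA, RNA polymerase I makes the large ribosomal RNA precursor, and RNA polymerase III makes transfer RNA, 5S ribosomal RNA and other small RNAs. General transcription factors place each polymerase on its promoter, Mediator carries signals from activators to polymerase II, and elongation factors act once the enzyme has left the promoter. The roles given below are those of the homologues in yeast, fruit fly and human. In mosquito females, the nurse cells of the ovary load the growing egg with RNA and ribosomes.

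Levels are RPKM, the reads per kilobase of a model, per M (mega) reads that were uniquely assigned. Below, molestus and quinquefasciatus stand for the 1 library of each, a pair of levels is given in that order, and a ratio is molestus over quinquefasciatus unless the other direction is stated. With 1 library per taxon differences have no replicate check, and p-values were not computed. The 95% intervals after folds and shares are exact and reflect counting error alone, although PCR copies are not independent molecules. The deposited tables were tied to the taxa through their abbreviations, Cxm and Cxq, and all directions depend on this. The molestus library held 9.79 M reads and the quinquefasciatus library 10.2 M reads. For a model of 1 kb, 3 reads equal 0.307 and 0.295 RPKM, a floor given to models without reads only in an alternative run. In the main comparison such models stayed at 0 RPKM.

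The genes of transcription were mostly higher in molestus. Of the 81 models, 78 had at least 1 RPKM in at least 1 library and were compared, as log2 ratios of (RPKM + 1). Of these, 39 (50%) were at least 2-fold higher (past 2-fold) in molestus, against a background of 22.8% over all 12789 compared models. The other direction held 1 model (1.28%), against a background of 18%. The median log2 ratio was 0.99, with quartiles of 0.51 and 1.40, beside a median of 0.18 over all compared models. Of the 78 models, 70 lay above a log2 ratio of 0, and the interval of the fold was entirely above 1-fold for 63 and entirely below it for 4. The models together held 0.660% (0.655 to 0.665) of the molestus reads and 0.317% (0.314 to 0.321) of the quinquefasciatus reads.

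The counts depended on the scaling more than the direction did. Rescaling by the median ratio shifts every log2 ratio by -0.30 before the pseudocount. The count then was 23 of 78 models past 2-fold in molestus and 2 in quinquefasciatus, with backgrounds of 16.1% and 23.7% and a median of 0.71 over the genes of transcription against -0.09 over all models. Trimmed mean of M-values (TMM) factors gave 26 and 1 models, with backgrounds of 17.1% and 22.6%. Most of these genes had moderate levels, with a median of 38.7 RPKM averaged over the libraries, and the ratio over all models also varied with level. Among the 3805 models with mean levels between 19.0 and 70.4 RPKM, the quartiles of the members, 29.6% were past 2-fold in molestus and 9.38% in quinquefasciatus, with a median log2 ratio of 0.57.

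Each of the 3 subunits of RNA polymerase I differed by under 2-fold between the libraries. RPA1 (CPIJ018338), the largest subunit, which forms the catalytic centre with RPA2, had 12.5 RPKM in molestus and 17.0 RPKM in quinquefasciatus. It was 1.36-fold higher in quinquefasciatus (1.22 to 1.51). RPA2 (CPIJ002457), the second largest subunit, had 37.0 and 29.3 RPKM, a fold of 1.26 (1.16 to 1.37). RPA12 (CPIJ009821), a small subunit that takes part in cleaving the RNA of a stalled enzyme, had 26.1 and 20.1 RPKM, and its fold of 1.30 had an interval that included 1 (0.98 to 1.73). The large subunits therefore lay on opposite sides of 1-fold, also under each of the 3 rescalings tried, although the median log2 ratio of the class, 0.33, came down to 0.04 with the median ratio.

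All 6 models of RNA polymerase II were higher in molestus, with a median log2 ratio of 1.40. Of these, 5 (83.3%) were past 2-fold, against 22.8% of all compared models. RPB1 (CPIJ016666), the largest subunit, whose C-terminal repeats are phosphorylated as transcription proceeds, had 115 RPKM in molestus and 67.7 RPKM in quinquefasciatus, a fold of 1.70 (1.64 to 1.77). RPB2 (CPIJ007655), which closes the catalytic centre with RPB1, had 152 and 56.9 RPKM, a fold of 2.67 (2.53 to 2.80). The levels of the pair were thus ordered differently, with RPB2 above RPB1 in molestus and below it in quinquefasciatus. The ratio of RPB2 to RPB1 was 1.32 in molestus and 0.841 in quinquefasciatus, a ratio of ratios of 1.56 (1.47 to 1.67) that no rescaling of a library can change. This and the other ratios between a pair of models within a library were chosen after the values were seen. A loss of reads particular to 1 model of a pair would not cancel in them.

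The smaller subunits of polymerase II spread more widely. RPB11 (CPIJ005304), which pairs with RPB3 when the enzyme is assembled, had the highest level of the class in molestus at 160 RPKM, against 34.7 RPKM in quinquefasciatus, and was 4.62-fold higher (3.87 to 5.55). RPB7 (CPIJ001219), part of the stalk from which the new RNA emerges, had the lowest level of the class in both libraries, at 50.1 and 13.0 RPKM, and was 3.85-fold higher (2.94 to 5.10). RPB9 (CPIJ001855), which serves accuracy and RNA cleavage, had 146 and 54.6 RPKM, and the polypeptide of 16 kDa (CPIJ006734) had 93.2 and 43.6 RPKM. Their folds were 2.67 (2.28 to 3.15) and 2.14 (1.79 to 2.56).

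Of the 8 models of RNA polymerase III, 6 (75%) were past 2-fold in molestus, against 22.8% of all compared models. The median log2 ratio was 1.19. RPC1 (CPIJ006171) and RPC2 (CPIJ004871), the pair that forms its catalytic centre, had 24.0 and 19.9 RPKM in molestus and 7.85 and 7.80 RPKM in quinquefasciatus. Both were low for polymerase subunits in quinquefasciatus, where only these and 1 of the RPC5 models had under 10 RPKM among the compared subunits. RPC1 was 3.06-fold higher (2.68 to 3.49) and RPC2 2.55-fold higher (2.18 to 3.0). RPC5 is represented by a pair of models of the same length, 1389 bases. CPIJ007413 had 41.9 and 14.5 RPKM and CPIJ018410 had 19.1 and 8.14 RPKM, and reads that match both would be missing from each if they are near-identical copies.

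The small subunits of polymerase III were less uniform. RPC9 (CPIJ009943), part of the stalk of the enzyme, had 50.2 and 17.1 RPKM, a fold of 2.94 (2.29 to 3.80), and RPC10 (CPIJ015892), which takes part in RNA cleavage and termination, had 82.2 and 40.3 RPKM, a fold of 2.04 (1.65 to 2.53). RPC7 (CPIJ007463), of the subcomplex that opens the promoter, differed little, at 56.0 and 58.4 RPKM and a fold of 0.96 (0.83 to 1.11). It was the 1 model of the class below 1-fold. The polypeptide of 22.9 kDa (CPIJ007887) had 18.0 and 11.5 RPKM, a fold of 1.57 (1.18 to 2.09).

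**Figure D1:**
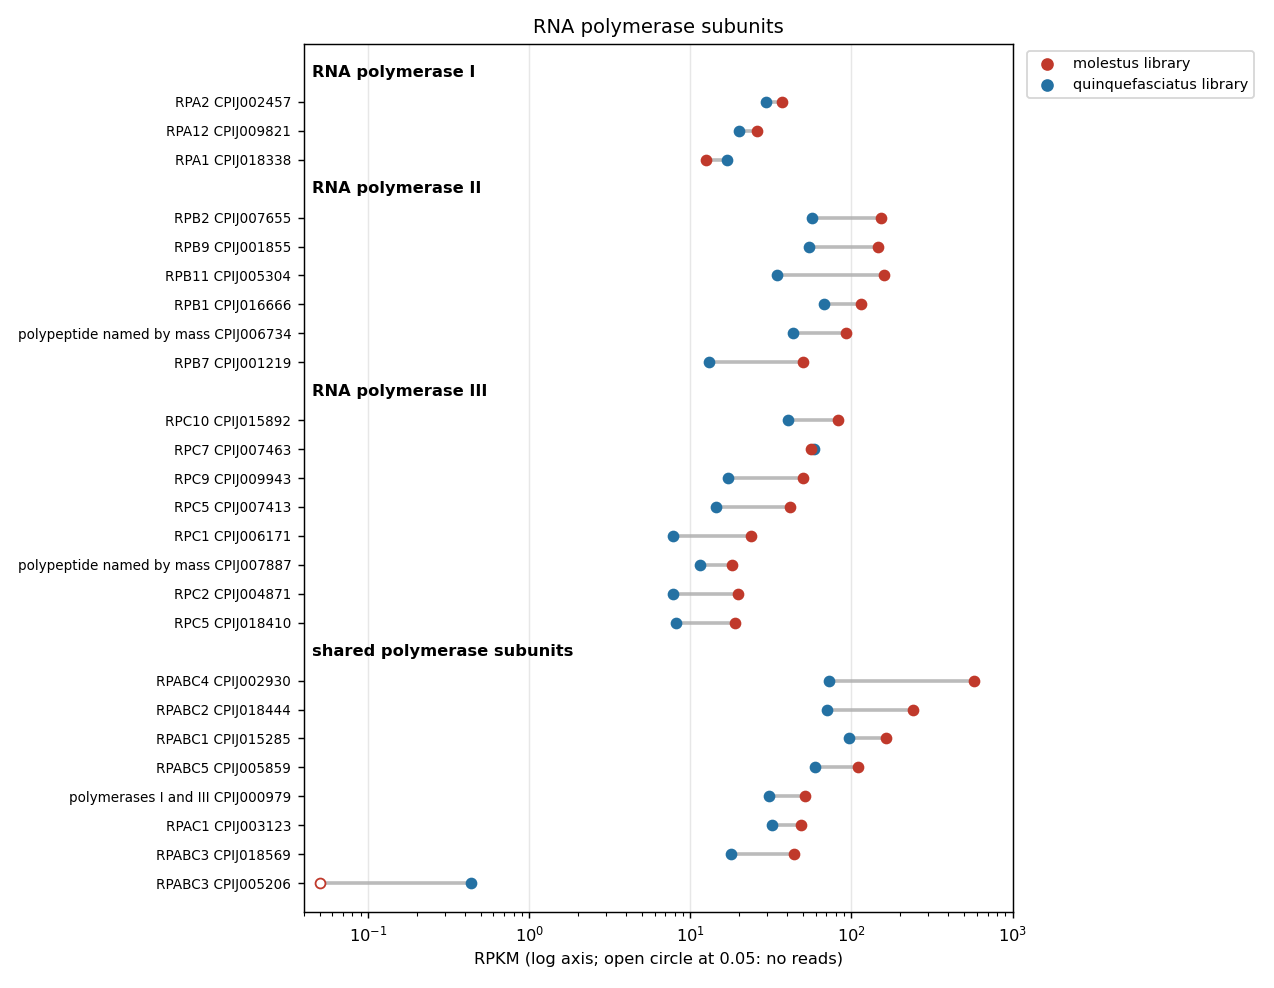
RPKM (log axis) of each RNA polymerase subunit in molestus (red) and the quinquefasciatus library (blue), 1 library each, joined by a grey line and ordered within each class by mean level. The red point lies to the right for all models except RPA1, RPC7 and the low RPABC3 model CPIJ005206, which had no molestus reads (open circle), and the widest gap among the others is that of RPABC4 at 576 against 72.4 RPKM.

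Set against each other within a library, the large subunits of the polymerases stood in different proportions. The ratio of RPB1 to RPA1 was 9.23 in molestus and 3.99 in quinquefasciatus, a ratio of ratios of 2.31 (2.07 to 2.59). For the second largest subunits, RPB2 over RPA2, the values were 4.10 and 1.94, a ratio of ratios of 2.11 (1.91 to 2.33). Polymerase III also stood higher relative to polymerase I in molestus, with ratios of ratios of 4.15 (3.51 to 4.91) for RPC1 over RPA1 and 2.02 (1.69 to 2.42) for RPC2 over RPA2. Between polymerases II and III the pairs differed. RPB2 over RPC2 was 7.62 and 7.30, a ratio of ratios of 1.04 (0.882 to 1.23), whereas RPB1 over RPC1 was 4.81 and 8.63, a ratio of ratios of 0.558 (0.486 to 0.639).

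Subunits shared between polymerases were all higher in molestus where they could be compared. RPABC4 (CPIJ002930), a small zinc-binding subunit of all 3 enzymes, had 576 RPKM in molestus and 72.4 RPKM in quinquefasciatus. This was the highest molestus level and the largest fold among the compared models of the whole group, 7.96-fold (7.02 to 9.06), from 2115 and 276 reads over a model of 375 bases. Without it the summed RPKM of the group was 5075 in molestus and 2647 in quinquefasciatus, a ratio of 1.92 in place of 2.08. RPABC2 (CPIJ018444), which helps hold the assembled enzyme together, had 243 and 70.3 RPKM, a fold of 3.45 (3.10 to 3.85).

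The other shared subunits differed by smaller factors. RPABC1 (CPIJ015285) had 163 and 96.6 RPKM, a fold of 1.69 (1.53 to 1.86), and RPABC5 (CPIJ005859), which joins the assembly platform of each enzyme, had 110 and 59.2 RPKM, a fold of 1.85 (1.59 to 2.16). RPAC1 (CPIJ003123), shared by polymerases I and III, had 48.7 and 32.0 RPKM, and a further subunit described only as one of polymerases I and III (CPIJ000979) had 51.6 and 30.6 RPKM. Their folds were 1.52 (1.32 to 1.75) and 1.69 (1.30 to 2.19), between that of RPA2 and those of most subunits of polymerase III. Of a pair of RPABC3 models, CPIJ018569 had 43.7 and 17.8 RPKM, a fold of 2.45 (2.0 to 3.02), and CPIJ005206 had 0 and 2 reads, at or under the floor in both libraries.

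Among the initiation factors of polymerase II, the TATA-box-binding protein (TBP), which bends promoter DNA and serves all 3 polymerases, was described for 4 models that went different ways. CPIJ003789 carried most of the reads, at 164 RPKM in molestus and 76.3 RPKM in quinquefasciatus, a fold of 2.15 (1.99 to 2.32). CPIJ007600 had 25.1 and 7.41 RPKM, a fold of 3.39 (2.60 to 4.46). CPIJ018368, of the same length as CPIJ007600 at 969 bases, had 7.91 and 8.02 RPKM, a fold of 0.99 (0.71 to 1.37). CPIJ001023 had 4 and 24 reads, or 0.61 and 3.51 RPKM, and was 5.78-fold higher in quinquefasciatus (1.98 to 22.9). It was the 1 model of the whole group counted as at least 2-fold higher there, and reads covered 31.3% of its length in molestus and 72.3% in quinquefasciatus.

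TFIID, the complex of TBP and its associated factors that recognizes the core promoter, had 12 models described as its subunits, without a subunit number. Of these, 3 (25%) were past 2-fold in molestus, a share near the 22.8% over all models and under the 29.6% of models at similar levels. None was past 2-fold in quinquefasciatus, and the median log2 ratio was 0.71. CPIJ005672 had 47.8 and 7.34 RPKM, a fold of 6.52 (4.78 to 9.07), the second largest of the group. CPIJ001398 had 46.5 and 17.8 RPKM and CPIJ002544 had 18.4 and 7.41 RPKM, with folds of 2.61 (2.15 to 3.19) and 2.48 (2.03 to 3.05). Each of these 3 had a lower level in both libraries than the 3 most abundant subunits.

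The most abundant TFIID subunit, CPIJ002165, had 113 and 57.0 RPKM, a fold of 1.98 (1.82 to 2.15), just inside the 2-fold limit. CPIJ011778 had 79.9 and 59.3 RPKM, a fold of 1.35 (1.16 to 1.56). CPIJ010483 had 75.7 and 66.9 RPKM, a fold of 1.13 (0.96 to 1.33) that fell to the other side of 1-fold under each of the 3 rescalings, at 0.921 to 0.956. The exception in direction was CPIJ002639, at 28.0 and 45.6 RPKM, which was 1.62-fold higher in quinquefasciatus (1.28 to 2.07). CPIJ008789 and CPIJ008434 had folds of 2.03 (1.71 to 2.42) and 1.91 (1.72 to 2.13), and the former lay within 2-fold once the pseudocount was added. The longest subunit model, CPIJ003658 with 6153 bases, had 18.5 and 12.7 RPKM, a fold of 1.45 (1.33 to 1.59). CPIJ004236 had a fold of 1.21 (1.07 to 1.37), or 0.983 after rescaling by the median ratio, and CPIJ004650 rested on 11 and 6 reads.

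Outside these subunits, a model described as TFIID itself (CPIJ008670) had 82.2 and 33.3 RPKM, a fold of 2.47 (2.27 to 2.69), and a TATA-binding protein-associated factor (CPIJ003582) had 18.9 and 14.1 RPKM, a fold of 1.34 (1.22 to 1.47). TFIIB (CPIJ006843), which links TBP to polymerase II and helps set the start site, showed the largest ratio of the remaining general factors. It had 87.0 RPKM in molestus and 17.4 RPKM in quinquefasciatus, a fold of 5.01 (4.24 to 5.95). The TFIIA subunits, which steady TBP on DNA, were both abundant. The one described without a letter (CPIJ002554) had the highest molestus level of the initiation factors at 208 RPKM, against 140 RPKM, a fold of 1.49 (1.40 to 1.59), and the gamma chain (CPIJ007398) had 90.9 and 34.0 RPKM, a fold of 2.67 (2.29 to 3.13). The ratio of the former to the gamma chain was 2.29 in molestus and 4.11 in quinquefasciatus, a ratio of ratios of 0.557 (0.469 to 0.661).

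TFIIE brings TFIIH to the promoter. Its alpha subunit (CPIJ020226) had 57.4 and 24.1 RPKM, a fold of 2.38 (2.08 to 2.73), while its beta subunit (CPIJ013475) had 37.5 and 42.2 RPKM, a fold of 0.89 (0.76 to 1.03). The alpha to beta ratio was therefore 1.53 in molestus and 0.571 in quinquefasciatus, a ratio of ratios of 2.68 (2.19 to 3.29). TFIIF, which escorts polymerase II to the promoter, had closer partners, with alpha (CPIJ009645) at 110 and 68.3 RPKM and beta (CPIJ017673) at 93.0 and 47.4 RPKM. Its alpha to beta ratio was 1.19 and 1.44, a ratio of ratios of 0.824 (0.711 to 0.954).

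All 3 initiation factors of the other polymerases in the group were past 2-fold in molestus, against 22.8% of all compared models. The factor rrn3 (CPIJ010951), which makes polymerase I able to start on ribosomal DNA, had 105 and 36.3 RPKM, a fold of 2.88 (2.64 to 3.15), beside folds of 0.74 to 1.30 for the subunits of polymerase I. The factor brf1 (CPIJ008273), part of the TFIIIB complex that recruits polymerase III, had 14.8 and 3.89 RPKM, a fold of 3.80 (2.44 to 6.10). This brf1 model had 657 bases and held 95 and 26 reads. Outside the group, a longer model of 1602 bases (CPIJ008270) is described as the 90 kDa subunit of transcription factor IIIB, which in human is brf1. It had 11.2 and 8.41 RPKM, from 175 and 137 reads. Its fold was 1.33 (1.05 to 1.67), within 2-fold. The models named for this factor thus differed, and whether they are parts of the same gene was not tested. A polypeptide of general transcription factor 3C (CPIJ006165), which binds inside transfer RNA genes, had 13.5 and 5.79 RPKM, a fold of 2.33 (1.92 to 2.83).

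**Figure D2:**
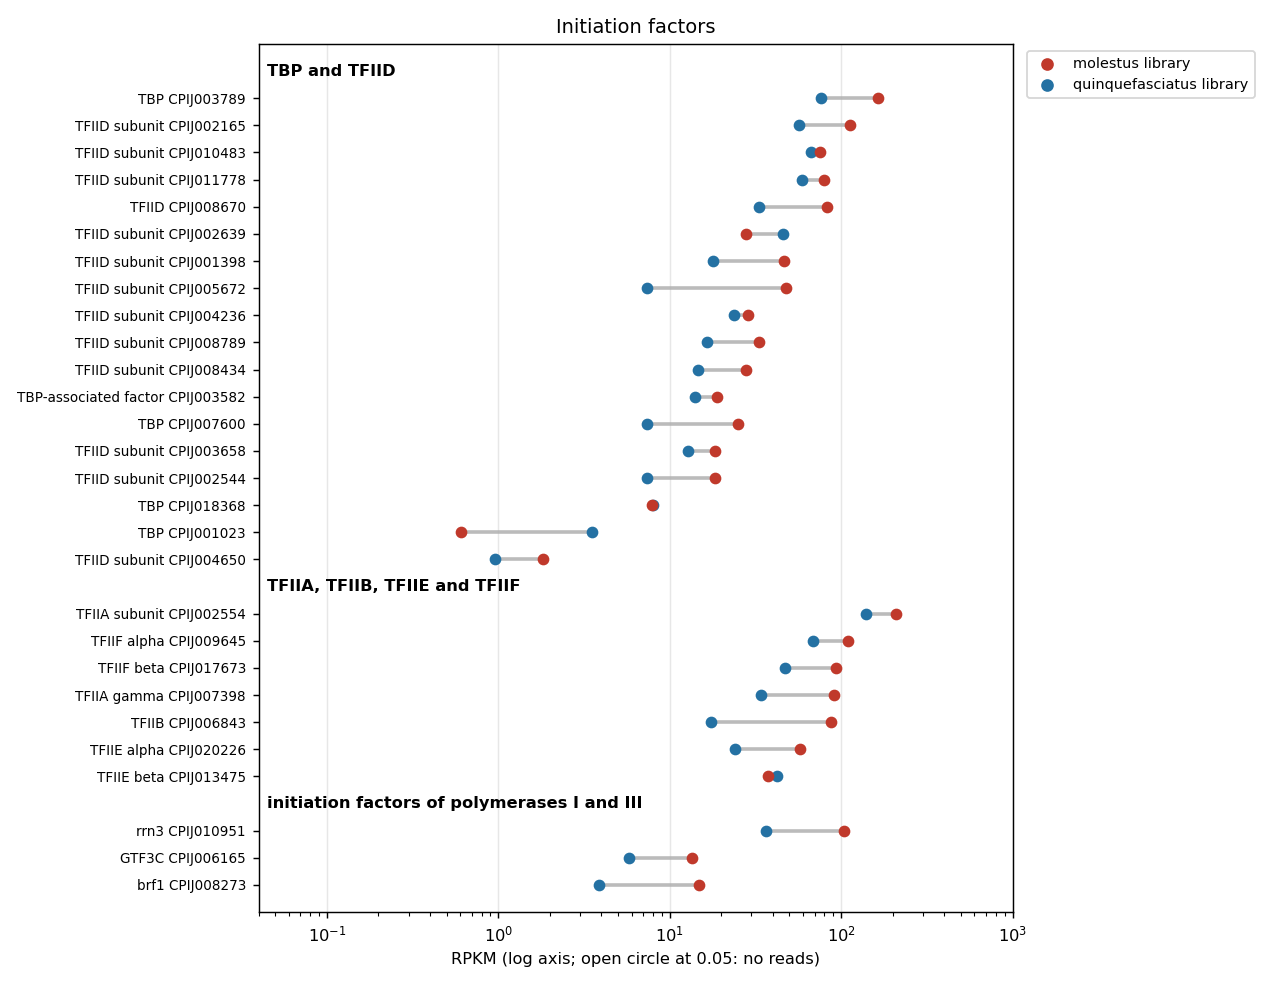
RPKM (log axis) of each initiation factor in molestus (red) and the quinquefasciatus library (blue), 1 library each, joined by a grey line and ordered within each class by mean level. The blue point lies to the right for the TBP models CPIJ001023 and, barely, CPIJ018368, for the TFIID subunit CPIJ002639 and for TFIIE beta, and TFIIB and the TFIID subunit CPIJ005672 have the widest gaps in the opposite direction.

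Elongation factors had a median log2 ratio of 0.67 over 11 models, beside 0.57 for all models at similar levels. Of the 11, 5 (45.5%) were past 2-fold in molestus, against 22.8% of all compared models and 29.6% at similar levels. SPT4 and SPT5 form the factor that first pauses and then speeds polymerase II. SPT5 (CPIJ003095) had 66.0 RPKM in molestus and 15.7 RPKM in quinquefasciatus, a fold of 4.20 (3.81 to 4.64), and SPT4 (CPIJ010586) had 166 and 71.2 RPKM, a fold of 2.32 (2.04 to 2.65). Both were higher in molestus but by different factors, so that SPT5 over SPT4 was 0.399 and 0.221, a ratio of ratios of 1.81 (1.53 to 2.13).

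Transcription elongation factor B, known as elongin, raises the speed of polymerase II and also serves in a ubiquitin ligase. Its 3 models included the highest and the lowest ratio of the class. The long model CPIJ003427, of 1947 bases, had 91.3 and 18.6 RPKM, a fold of 4.90 (4.37 to 5.49). The short model CPIJ018129, of 270 bases, had 85.5 and 145 RPKM and was 1.70-fold higher in quinquefasciatus (1.44 to 2.01), where it was the most abundant model of the whole group. The third, CPIJ002389, had 142 and 105 RPKM, a fold of 1.35 (1.17 to 1.55).

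TFIIS, described as elongation factor S-II, restarts polymerase II after arrest by making it cut its own RNA. CPIJ004677 had 157 and 97.7 RPKM, a fold of 1.60 (1.47 to 1.74), and CPIJ013846 had 38.7 and 18.3 RPKM, a fold of 2.12 (1.90 to 2.36). CPIJ004678 had 11.3 and 10.2 RPKM, a fold of 1.11 (0.82 to 1.49), and all 3 rescalings put it below 1-fold, at 0.901 to 0.936. Reads covered 65.2% of its length in molestus and 94.99% in quinquefasciatus. Of the models described as transcription elongation regulators, CPIJ006155 had 28.1 and 13.0 RPKM, CPIJ006156 had 60.3 and 41.3 RPKM, and CPIJ002677 had 37 and 23 reads. Their folds were 2.17 (1.91 to 2.47), 1.46 (1.29 to 1.66) and 1.67 (0.97 to 2.95).

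Mediator had the lowest median of the classes after polymerase I, a log2 ratio of 0.59 over 7 compared models, with 2 (28.6%) past 2-fold in molestus. Both values were near those of all models at similar levels, 0.57 and 29.6%. CPIJ002842 had 101 and 28.9 RPKM, a fold of 3.48 (2.92 to 4.18), and CPIJ013633 had 43.2 and 16.0 RPKM, a fold of 2.70 (2.20 to 3.33). CPIJ003763 was nearly level at 78.0 and 79.3 RPKM, a fold of 0.98 (0.84 to 1.15). The descriptions name no subunit, so that the kinase, head, middle and tail parts of the complex cannot be told apart. CPIJ013691, CPIJ013518 and CPIJ008343 lay close together, with folds of 1.54 (1.33 to 1.78), 1.49 (1.27 to 1.75) and 1.54 (1.18 to 2.03). CPIJ002301 had a fold of 1.25 (0.93 to 1.69), and CPIJ006021 had 0 and 4 reads and was not compared.

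Proteins that act on or travel with polymerase II had a median log2 ratio of 1.13 over 5 compared models. RTF1 (CPIJ006192), of the Paf1 complex that accompanies the elongating enzyme, had 90.7 and 24.7 RPKM, a fold of 3.68 (3.36 to 4.03). LEO1 (CPIJ008676), of the same complex, went the other way at very low levels, with 3 and 30 reads over 4119 bases. It was 9.63-fold higher in quinquefasciatus (2.99 to 49.3), at under 1 RPKM in both, and was not among the compared models. Reads covered 6.55% and 35.9% of the LEO1 model.

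The phosphatases of the C-terminal domain, which reset polymerase II for a new round, were higher in molestus where well covered. The CTD phosphatase CPIJ004583 had 43.2 and 18.3 RPKM, a fold of 2.36 (2.10 to 2.65), and ssu72 (CPIJ019639) had 33.2 and 14.6 RPKM, a fold of 2.28 (1.76 to 2.97). A further SSU72 model (CPIJ007587) rested on 20 and 18 reads, and its fold of 1.15 was 0.940 to 0.976 under the rescalings. The transcriptional coactivator CPIJ012506 had 95.9 and 44.2 RPKM, a fold of 2.17 (1.85 to 2.55). Of the models whose descriptions gave no class, the initiation factor CPIJ002164 had 124 and 39.6 RPKM, a fold of 3.13 (2.91 to 3.37), and the polymerase CPIJ017384 had 21.6 and 6.62 RPKM, a fold of 3.26 (1.97 to 5.62). CPIJ002164 has the same length, 2367 bases, as the TFIID model CPIJ008670, and whether they are copies was not tested. The factor supt3 (CPIJ017276), a part of the coactivator complex SAGA, had 30.9 and 20.5 RPKM, a fold of 1.51 (1.26 to 1.80).

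**Figure D3:**
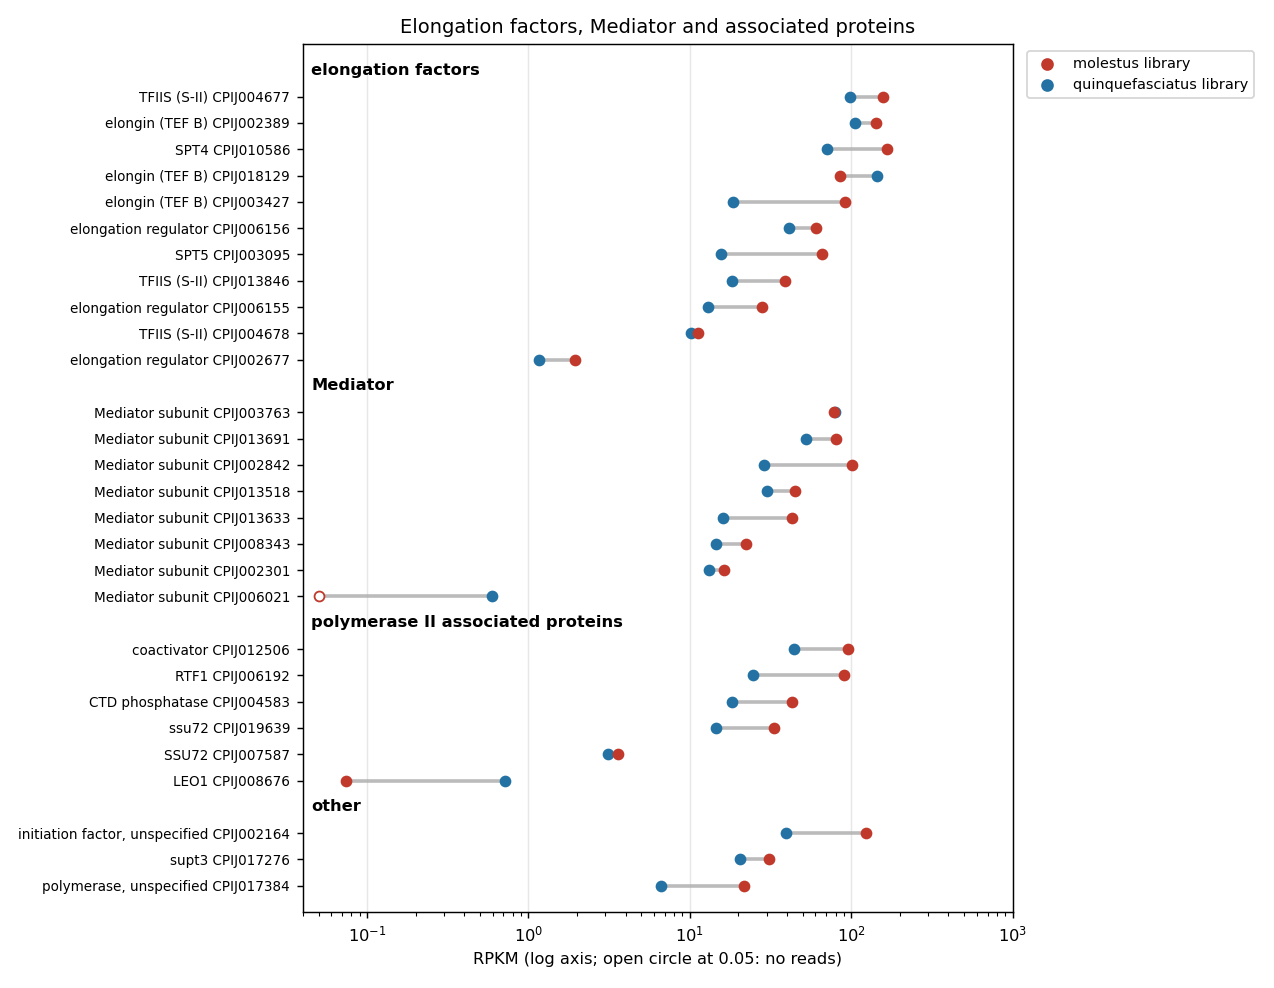
RPKM (log axis) of each elongation factor, Mediator subunit, associated protein and unclassed model in molestus (red) and the quinquefasciatus library (blue), 1 library each, joined by a grey line. Among the abundant models the blue point lies to the right for the short elongin model CPIJ018129, at 145 against 85.5 RPKM, and barely for the Mediator subunit CPIJ003763, and the Mediator model CPIJ006021 (open circle, no molestus reads) and LEO1 are the low ones.

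**Figure D4:**
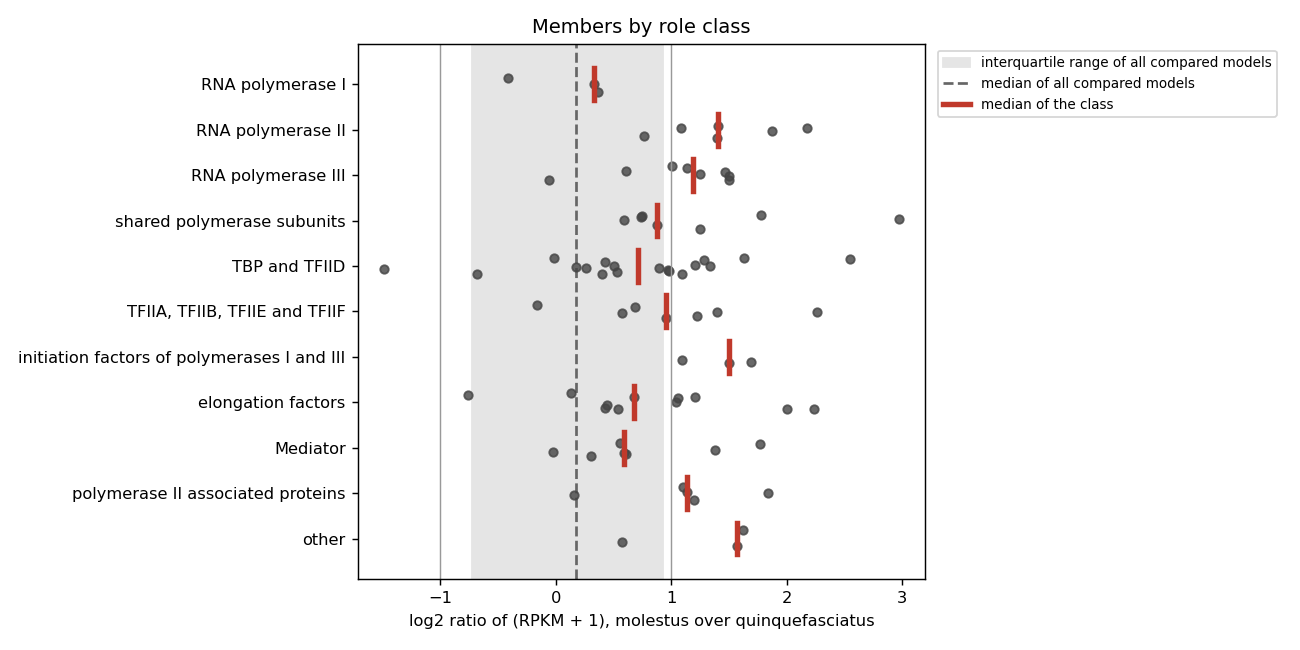
Log2 ratio of (RPKM + 1), molestus over quinquefasciatus, of the 78 compared models by role class, with the class median as a red bar, the interquartile range of all compared models in grey and vertical lines at 2-fold. Class medians run from 0.33 for RNA polymerase I to 1.57 for the models of no stated class, and 1 model lies beyond the 2-fold line on the quinquefasciatus side.

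The models past 4-fold numbered 6, all higher in molestus: RPABC4, the TFIID subunit CPIJ005672, TFIIB, the elongin model CPIJ003427, RPB11 and SPT5. They were 7.69% of the compared models and came from 5 of the classes. Over all compared models the backgrounds at 4-fold were 4.81% in molestus and 3.97% in quinquefasciatus, so the excess in molestus was smaller than at 2-fold. Length did not order the ratios. Over the 78 compared models, Spearman's rho between length and log2 ratio was 0.06 and Pearson's r between log2 length and log2 ratio was 0.06, as a description across models that share both libraries. The 33 models of at least 1 kb had a median log2 ratio of 1.06 and the 45 shorter ones 0.88, against 0.27 and 0.03 over all compared models of these lengths. Reads covered a median of 95.9% of a model's length in molestus and 94.99% in quinquefasciatus, and 71 of the 81 models had at least 50 reads in both.

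Other genes of the same pathway, taken by description outside the group above, had a smaller median log2 ratio of 0.62 over 34 compared models of 36. Of these, 11 (32.4%) were past 2-fold in molestus and 2 (5.88%) in quinquefasciatus, against 22.8% and 18% over all compared models. The median and the molestus share were near those of all models in the middle range of levels of the group above, 0.57 and 29.6%. Cell division protein kinase 9-A (CPIJ008862), the kinase that releases paused polymerase II, had 86.9 and 25.6 RPKM, a fold of 3.39 (3.02 to 3.82), while cyclin t (CPIJ012914), its partner, had 102 and 70.6 RPKM, a fold of 1.44 (1.37 to 1.52). Parafibromin (CPIJ010914), of the Paf1 complex like RTF1, had 62.9 and 24.6 RPKM, a fold of 2.56 (2.28 to 2.88). Negative elongation factor E (CPIJ000025), which holds polymerase II in a pause, had 40.2 and 58.5 RPKM and was 1.45-fold higher in quinquefasciatus (1.26 to 1.68).

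TFIIH, which opens the promoter and phosphorylates polymerase II, was mixed. Its p34 subunit (CPIJ000358) had 59.5 and 19.1 RPKM, a fold of 3.11 (2.61 to 3.72), whereas its p52 subunit (CPIJ005256) had 22.1 and 29.1 RPKM, a fold of 0.76 (0.65 to 0.88). Transcription factor IIIA (CPIJ014060), which starts 5S ribosomal RNA synthesis, had 19.6 and 4.58 RPKM, a fold of 4.28 (3.21 to 5.77). Models described as transcription termination factor had the highest log2 ratios of this list, with folds of 4.68 (4.07 to 5.40) for CPIJ019303 and 4.63 (3.67 to 5.90) for CPIJ005251. The histone chaperone FACT had a pair of Ssrp1 models in opposite directions. CPIJ002953 had 134 and 39.3 RPKM, a fold of 3.41 (3.18 to 3.67), and CPIJ020011 had 15.7 and 56.4 RPKM and was 3.60-fold higher in quinquefasciatus (3.07 to 4.24). Both carry the same name, so how the unique reads divide between them is uncertain.

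Beside other lists, the genes of transcription lay between those of splicing and those of DNA replication. Pre-mRNA splicing genes had a median log2 ratio of 0.82 over 61 models, 34.4% of them past 2-fold in molestus, and DNA replication genes a median of 1.61 over 48 models, 68.8% of them at least 2-fold higher. The share over all compared models was 22.8%. For cytosolic ribosomal proteins the median was -0.81 (106 models). No test of these differences was possible with 1 library per taxon.

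Markers of the germline and ovary were also mostly higher in molestus. Of 20 such models, 12 (60%) were past 2-fold in molestus and 4 (20%) in quinquefasciatus, against 22.8% and 18% over all compared models. These markers had a summed level of 1504 and 511 RPKM, with none at 0 reads. Their part in the ratios of the transcription genes was not tested, and in pooled females more cells of a type and more RNA per cell cannot be told apart. Markers of the midgut had a median log2 ratio of -1.21 over 90 compared models of 146. These had low median levels of 1.74 and 6.32 RPKM, and the list also holds models named antitrypsin and antichymotrypsin. Models named for troponin, tropomyosin, myosin or actin, the muscle list, had a median of -0.23 over 77, but the list also holds cytoplasmic actin, unconventional myosins and actin-binding proteins. The 11 models of troponin and tropomyosin alone, proteins of the contractile apparatus, had a median of -1.26, with 9 (81.8%) past 2-fold in quinquefasciatus and 0 in molestus. The other 66 compared models of the list had a median of 0.03. Of them, 17 (25.8%) were past 2-fold in quinquefasciatus and 10 (15.2%) in molestus. The eye list of opsins and arrestins had a median of -0.67 over 30 models. Its 10 compared opsin models alone had a median of -0.95, and its 12 compared arrestin domain models one of -0.44. The latter had median levels of 3.51 and 5.27 RPKM and do not include the models named arrestin. Of those, the abundant CPIJ003101, CPIJ012143 and CPIJ014777 had log2 ratios of -0.68, -1.63 and -1.17. At lower levels, CPIJ013156 had -1.55, whereas CPIJ016988 and the beta-arrestin CPIJ017114 had 0.63 and 1.17. These narrower sets and single models were chosen after the values were seen.

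**Figure D5:**
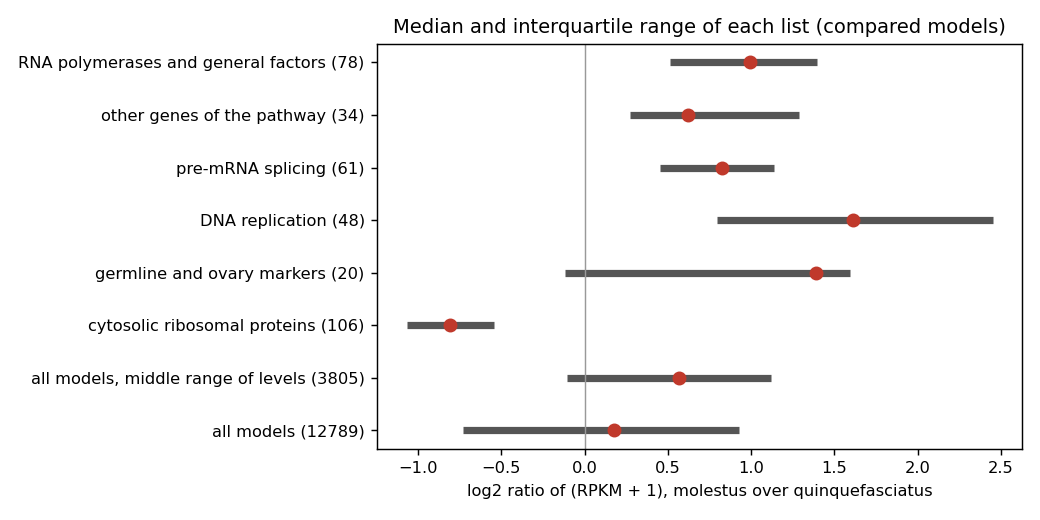
Median (red point) and interquartile range (bar) in each list of the log2 ratio of (RPKM + 1) for molestus over quinquefasciatus, with the number of compared models in brackets. The genes of transcription (median 0.99) lie above all models (0.18) and above all models in the middle range of their levels (0.57). They lie below the germline and ovary markers (1.39) and DNA replication (1.61).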

How the data were processed

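Per the labels' protocols, TRIzol RNA was selected for polyadenylated transcripts and made into non-directional Illumina libraries. For each transcript model the authors deposited a count of unique reads, its RPKM and the percent of its length covered, per the file headers. Aligner, counter, filters and gene model release: not given in the sources used here. RPKM recomputed from count, length and header total differed by at most 4.98e-07. Unlisted models were taken as 0 reads. Reads of overlapping antisense genes cannot be told apart, and unique assignment undercounts near-identical copies. Both libraries were counted on models with the same identifiers and lengths. If the models derive from only molestus or only quinquefasciatus, reads of the other taxon could be lost, to a different degree for each model. Such a loss was not tested. The percent of a model covered cannot decide it, because coverage also falls where reads are few.

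The tables were joined by model and compared as log2 ratios of (RPKM + 1) where either library had at least 1 RPKM. Single folds use RPKM without a pseudocount, with Clopper-Pearson intervals of the conditional binomial distribution, and ratios of ratios have exact conditional odds ratio intervals. A count test needs replicates and was not run. Classes were set from descriptions. The naming rule took, per class, up to 4 most abundant members, up to 3 with the largest ratio each way (5 RPKM and 50 reads in the higher library), the large polymerase subunits and TBP. Other members, and the named pathway models, were chosen after their values were seen. All members, lists and rules were chosen with earlier results of these data known. In simulated Poisson counts, 200 of 200 altered models and 0.712% of 12220 unaltered ones were counted past 2-fold. The altered models were changed by more than 2-fold and taken from well-read models, so their count largely followed from the setting. The simulation held no variation between libraries beyond counting, so its share of unaltered models is no error rate for these libraries. Tools were Python 3.11.15, numpy 2.4.6, pandas 2.3.3, scipy 1.17.1, matplotlib 3.10.9, R 4.3.3 and edgeR 4.0.16 (TMM factors).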

Additional observations from a re-analysis of the deposited data

How the results depend on the processing

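The direction of the median held under every alternative run: the median log2 ratio of all members lay between 0.71 and 1.12. The counts of members past 2-fold, 39 for molestus and 1 for quinquefasciatus, were 23 and 0 at a pseudocount of 10, 23 and 2 after rescaling by the median ratio, and 6 and 0 at a 4-fold limit. The shares over all models moved too, to 10.4% and 4.83% at a pseudocount of 10 and 4.81% and 3.97% at 4-fold. The lone quinquefasciatus count was also 0 at a minimum of 10 RPKM and 0 without the members that share their description with another member, a choice made after seeing the data that left 44 members, 26 of them past 2-fold in molestus.

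At a pseudocount of 10 the medians were 0.72 for all members, 0.81 for RNA polymerase III, 0.50 for TBP and TFIID, 0.83 for the initiation factors of polymerases I and III and 0.93 for models of no stated class. Rescaling by the median ratio gave 0.71 for all members, 1.11 for RNA polymerase II, 0.92 for RNA polymerase III, 0.59 for shared subunits, 0.48 for TBP and TFIID, 0.67 for TFIIA to TFIIF, 1.21 for initiation factors of polymerases I and III, 0.38 for elongation factors, 0.31 for Mediator and 0.85 for polymerase II associated proteins. TMM factors and equal sums without the most abundant models gave the same values to 2 decimals for all members (0.76), RNA polymerase II (1.16), RNA polymerase III (0.97), shared subunits (0.64), TFIIA to TFIIF (0.72), initiation factors of polymerases I and III (1.26) and elongation factors (0.43), and 0.53 and 0.52 for TBP and TFIID. These shifts follow from the construction of the alternatives. Without members of shared description, elongation factors had a median of 1.60 over 2 models, and Mediator was -0.0245 from 1 model, since the others share a description.

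Of 58 named models, 0 that were past 2-fold changed sides under the pseudocounts, filters and rescalings. This was fixed in advance and is no check. An equal pseudocount or a filter cannot reverse a ratio, and the largest shift by rescaling was -0.30 in log2. Of 79 members with reads in both libraries, 4 crossed 1-fold under at least 1 of the 3 rescalings, all of them within 2-fold. No paired analysis was possible because each taxon had 1 library, and leaving out a replicate could not be done. Depth limits the models under 50 reads.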
